A study of Mus musculus with 6 samples.

Results

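Kupffer cells are the macrophages that reside in the sinusoids of the liver. The 10 genes described here mark these cells or the macrophages that gather in injured liver and in liver tumors, and they were taken from the table of liver tumor RNA-seq values by their symbols alone, 10 of 30236 rows. They fall into 5 markers of resident Kupffer cells (Clec4f, Timd4, Vsig4, Marco and Cd5l), 2 markers of lipid-associated macrophages (Trem2 and Gpnmb) and 3 markers that most macrophages share (Adgre1, Cd68 and Csf1r). The tumors came from male C57BL/6 mice, 3 libraries from wild type mice (WT) and 3 from mice lacking Top1mt, the gene of the mitochondrial topoisomerase IB (Top1mt -/-, here KO). All mice, WT included, had received diethylnitrosamine, a liver carcinogen, on day 14 after birth. From an age of 8 weeks they were also given carbon tetrachloride, a toxin that injures hepatocytes, for 14 weeks, and the tumors were collected at 22 weeks. The line was kept by heterozygous breeding, the treated mice were littermates, and the deletion is not restricted to one cell type. Non-tumor liver was not analysed here, so the values compare tumors with tumors. The paper describes the tumors of each genotype as independent, and neither it nor the labels tie each library to a mouse. The p-values thus judge the difference between genotypes against the spread between tumors, which limma, the test used, moderates by that of all genes tested.

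Resident Kupffer cells are seeded before birth, keep themselves by local division and clear particles, bacteria and dying cells from the portal blood. When they are lost, monocytes enter, become macrophages and gain the resident markers gradually, with Timd4 a late one. Macrophages that take up lipid and cell debris switch on Trem2 and Gpnmb, and such cells are known from fatty, fibrotic and cancerous liver.

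Values are the authors' log2 expression values, on which a difference of 1 is a factor of 2. The transform is unnamed and resembles a regularized log, in which changes of weakly expressed genes are understated. No read totals come with the values, and sequencing depth is unknown. Of the libraries, WT replicate 2 and KO replicate 1 stood apart. Top1mt, the targeted gene, measured 7.71, 5.99 and 8.01 in the WT tumors against 5.58, 6.41 and 6.32 in the KO tumors, always in the order of replicates 1, 2 and 3. Its log2 fold change was -1.13 (95% interval -2.34 to 0.067, limma's adjusted p = 0.999). For Top1mt the library labelled WT replicate 2 fell under 2 KO libraries, which goes against its label, and every direction between genotypes below rests on the labels. In KO replicate 1 a single transcript, Gm42418, made up 17.7% of all values after return to the linear scale, against 0.387% or less elsewhere. Hepatocyte markers were high in each library, with the mean over 6 genes, Alb among them, between 15.8 and 16.5.

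No macrophage marker differed between the genotypes beyond the spread between tumors. The 10 markers were all among the 22677 genes tested, and 0 of them passed limma at an adjusted p under 0.05, where 0 of all genes tested (0%) did. The paper, which used DESeq2 on counts, did report genes that differed between the genotypes. The absence of calls by limma on log2 values thus does not show that the tumors are alike. At an unadjusted p under 0.05 there were also 0 markers, against 4.34% of all genes tested (1.79% higher and 2.56% lower in KO). The WT and KO values overlapped for all 10 markers, while 8.28% of all genes tested did not overlap. Of the 10, 6 had a higher and 4 a lower mean in KO, and their median log2 fold change was 0.10, where that of all genes tested was -0.015. The markers differed from one another mainly in their spread between tumors of the same genotype.

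**Figure D1:**
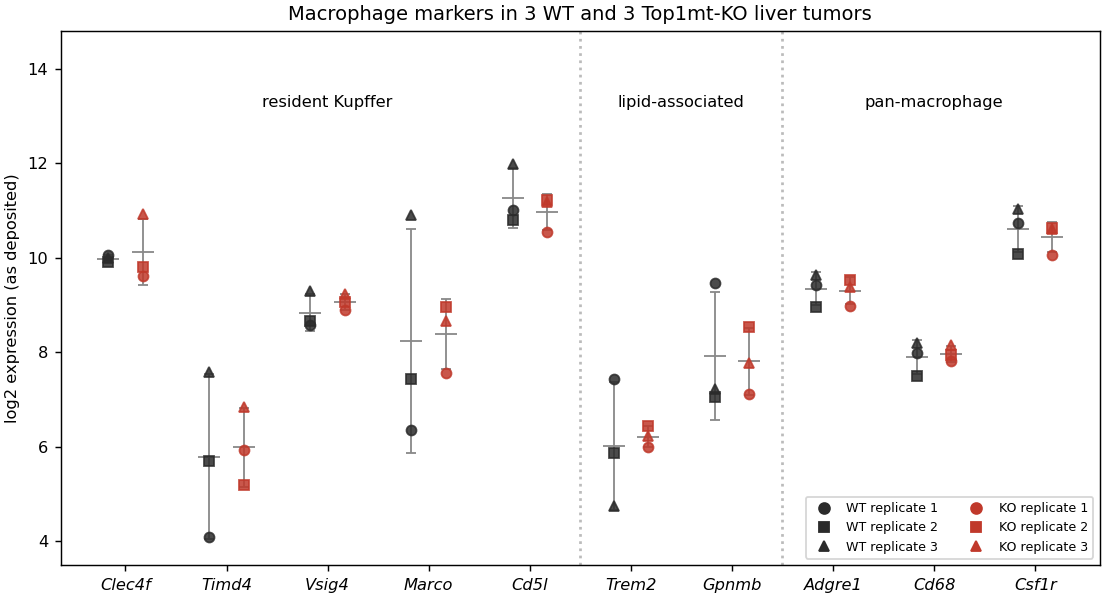
Log2 expression as deposited (vertical axis) of the 10 markers in 3 WT (black) and 3 KO (red) liver tumors, with the mean and SD of each genotype as grey bars. Marco, Timd4, Trem2 and Gpnmb spread widely within WT, from 6.37 to 10.91 for Marco, while Adgre1, Cd68 and Csf1r each span less than 1 within a genotype.

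The markers shared by most macrophages had an ordinary spread from tumor to tumor. Their range over the WT tumors was 1.61-fold for Adgre1, 1.63-fold for Cd68 and 1.94-fold for Csf1r, wider than in 54.7%, 55.7% and 68.1% of the genes tested. Adgre1, which encodes the surface receptor F4/80, was 9.43, 8.96 and 9.65 in the WT tumors against 8.99, 9.54 and 9.39 in the KO tumors. Its mean was 9.35 ± 0.35 (SD, n = 3) for WT against 9.31 ± 0.28 (SD, n = 3) for KO. For its log2 fold change of -0.043 the 95% interval ran from -0.55 to 0.46 (limma's adjusted p = 0.999), which corresponds to 0.685 to 1.38 times the WT level. Cd68, a glycoprotein of lysosomes and late endosomes in phagocytes, was 7.99, 7.50 and 8.21 in the WT tumors against 7.83, 7.94 and 8.15 in the KO tumors. Its log2 fold change was 0.072, with an interval from -0.42 to 0.57. Csf1r, the receptor for the growth factors CSF1 and IL-34 on which macrophages depend, was 10.73, 10.09 and 11.04 in the WT tumors against 10.07, 10.64 and 10.62 in the KO tumors. Its log2 fold change was -0.18, with an interval from -0.80 to 0.44. In all 3 genes WT replicate 3 had the highest value, and WT replicate 2 and KO replicate 1 had the lowest pair of values. That pair was lowest in 9.43% of all genes tested, and WT replicate 3 was highest in 16.7%.

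The signs of these small differences changed with the libraries. With WT replicate 2 left out, Adgre1 had a log2 fold change of -0.24, Cd68 of -0.13 and Csf1r of -0.45, and Csf1r then no longer overlapped between the genotypes (unadjusted p 0.0905 and adjusted p 0.961 by limma). Without KO replicate 1 it was 0.11 for Adgre1 and 0.0092 for Csf1r, and without WT replicate 3 it was 0.11 for Adgre1 and 0.031 for Csf1r. Cd68 was at -0.018 without KO replicate 3, and Adgre1 at 0.00026 without WT replicate 1. With WT replicate 2 and KO replicate 1 both left out, it was -0.079 for Adgre1, -0.052 for Cd68 and -0.26 for Csf1r. Leaving libraries out makes an overlap less likely for any gene. The share of all genes without overlap is given only for all 6 libraries, here and below. In bulk tumor RNA, fewer macrophages and less RNA per macrophage cannot be told apart.

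**Figure D2:**
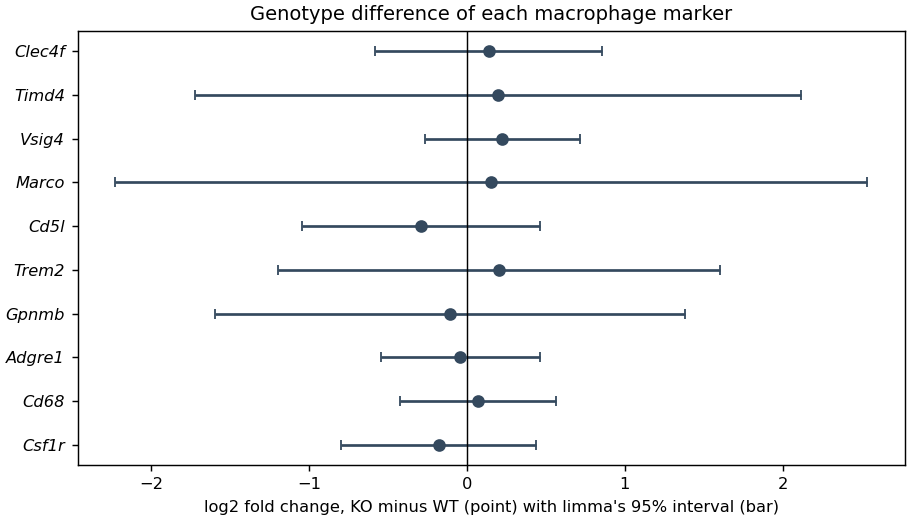
Log2 fold change of each marker, KO minus WT (horizontal axis, points), with limma's 95% confidence interval (bars). Each interval includes 0, and they range in width from that of Vsig4, -0.27 to 0.72, to that of Marco, -2.23 to 2.53.

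The 5 resident Kupffer markers did not move as a block. Clec4f, a C-type lectin that in mice is largely restricted to Kupffer cells, lay between 9.91 and 10.06 in the 3 WT tumors and was 9.63, 9.82 and 10.93 in the KO tumors. Its WT range of 0.15 was wider than that of only 11.4% of the genes tested. KO replicate 3 stood above all other libraries, and KO replicates 1 and 2 lay below all WT libraries. The log2 fold change was 0.14 (95% interval -0.58 to 0.86, limma's adjusted p = 0.999). It was -0.26 with KO replicate 3 left out, where WT and KO no longer overlapped. Vsig4, the complement receptor CRIg that captures opsonized particles, was 8.57, 8.66 and 9.30 in the WT tumors against 8.90, 9.07 and 9.23 in the KO tumors. Its log2 fold change of 0.22 (95% interval -0.27 to 0.72) was the only one of the 10 that kept its direction under every alternative tried. Its size moved with the libraries, to 0.089 without WT replicate 1, 0.13 without WT replicate 2 and 0.14 without KO replicate 3. With WT replicate 3 left out it was 0.45, with an unadjusted p of 0.0335 by limma and an adjusted p of 0.997, and WT and KO no longer overlapped. Cd5l, a secreted scavenger protein of macrophages also called AIM, was 11.01, 10.81 and 11.99 in the WT tumors against 10.54, 11.22 and 11.18 in the KO tumors. Its log2 fold change was -0.29 (95% interval -1.04 to 0.46), and 0.069 without WT replicate 3.

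Marco and Timd4 differed far more between tumors than the other 3 resident markers. Marco, a class A scavenger receptor that binds bacteria and particles, was 6.37, 7.45 and 10.91 in the WT tumors, a 23.3-fold range on the linear scale. In KO it was 7.55, 8.95 and 8.68, a 2.64-fold range. Its mean was 8.24 ± 2.37 (SD, n = 3) for WT against 8.39 ± 0.74 (SD, n = 3) for KO. Timd4, the receptor TIM-4 that binds phosphatidylserine on dying cells, was 4.10, 5.69 and 7.59 in the WT tumors against 5.93, 5.19 and 6.85 in the KO tumors. WT replicate 1 was the lowest and WT replicate 3 the highest library for both genes, and all 3 KO libraries lay between them. The log2 fold change was 0.15 for Marco (95% interval -2.23 to 2.53, limma's adjusted p = 0.999) and 0.20 for Timd4 (95% interval -1.73 to 2.12, limma's adjusted p = 0.999).

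The direction of both genes changed with single libraries. With WT replicate 3 left out, the log2 fold change was 1.49 for Marco (unadjusted p 0.0182 and adjusted p 0.997 by limma), with no overlap left, and 1.09 for Timd4. Without WT replicate 1 it was -0.78 for Marco and -0.65 for Timd4. Marco was also at -0.24 without WT replicate 2 and at -0.13 without KO replicate 2, and Timd4 at -0.24 without KO replicate 3. For the resident class, the median log2 fold change of 0.15 became 0.45 without WT replicate 3, -0.42 without WT replicate 1 and -0.24 without KO replicate 3.

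The 2 lipid-associated markers ran the other way from Marco and Timd4 between WT replicates 1 and 3. Trem2, a receptor that senses lipids and signals through the adaptor Tyrobp, was 7.43, 5.87 and 4.74 in the WT tumors against 6.00, 6.44 and 6.22 in the KO tumors. Its highest library was WT replicate 1 and its lowest WT replicate 3, a 6.47-fold range, while the KO libraries spanned 1.35-fold between them. Gpnmb, a transmembrane glycoprotein of lipid-laden phagocytes that other cell types can also make, was 9.48, 7.05 and 7.23 in the WT tumors against 7.12, 8.53 and 7.78 in the KO tumors. WT replicate 1 was again highest and KO replicate 2 came next in both genes. The log2 fold change was 0.20 for Trem2 (95% interval -1.20 to 1.60, limma's adjusted p = 0.999) and -0.11 for Gpnmb (95% interval -1.59 to 1.38, limma's adjusted p = 0.999). Without WT replicate 1 it was 0.91 for Trem2, which then no longer overlapped between the genotypes, and 0.67 for Gpnmb. Without WT replicate 3 it was -0.43 for Trem2, and without KO replicate 1 it was 0.24 for Gpnmb.

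WT replicates 1 and 3 were thus opposite in 4 of the markers while their shared macrophage markers were similar. Between these 2 tumors Marco differed by 4.54 and Timd4 by 3.49 on the log2 scale, higher in WT replicate 3. Trem2 differed by 2.69 and Gpnmb by 2.24, higher in WT replicate 1. Adgre1, Cd68 and Csf1r differed by 0.21, 0.22 and 0.31. Each marker was also expressed relative to the mean of Adgre1, Cd68 and Csf1r in the same library, all centred over the 6 libraries. On that scale Marco was -2.07, -0.46 and 2.22 in the WT tumors against -0.46, 0.53 and 0.24 in the KO tumors. Trem2 was 1.20, 0.17 and -1.74 in the WT tumors against 0.19, 0.21 and -0.016 in the KO tumors. Clec4f, Vsig4 and Cd5l stayed between -0.50 and 0.75. The mean of the resident class minus that of the lipid-associated class was -2.31, 0.16 and 2.09 in the WT tumors against 0.073, -0.51 and 0.49 in the KO tumors, and the KO tumors lay between the extremes of WT. With only Marco and Timd4 for the resident class it was -3.34, -0.0039 and 3.15 in WT against 0.066, -0.53 and 0.65 in KO. These 2 genes were picked for their large differences, so the wider range in WT follows from the choice. In KO replicate 2 Marco (0.63) and Timd4 (-0.70) lay on opposite sides of their means and partly cancelled. The order of the tumors by this difference was noticed in these values and is given as a description of 6 libraries. The 10 further genes of each of these classes, listed below, swung far less. Their mean centred values in WT replicate 1 were -0.076 for the resident and -0.050 for the lipid-associated genes. In WT replicate 3 they were 0.34 and -0.10.

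**Figure D3:**
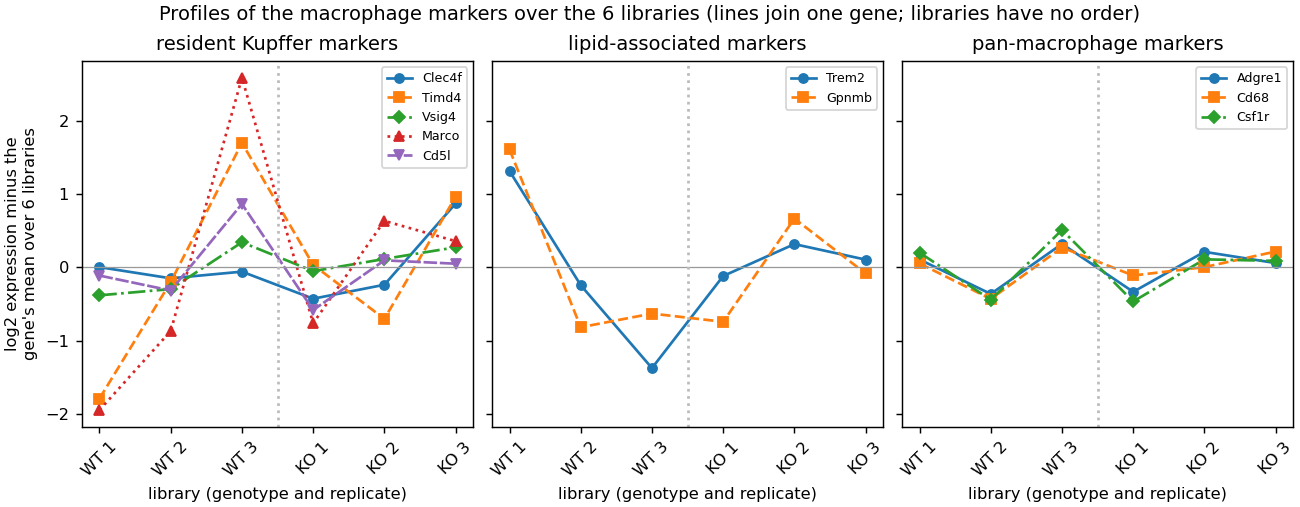
Log2 expression of each marker minus its own mean over the 6 libraries (vertical axis), by library, in 3 panels for the marker classes; lines join the values of one gene, and the libraries have no order. WT replicate 1 is low for Marco (-1.95) and Timd4 (-1.79) and high for Trem2 (1.32) and Gpnmb (1.61), and WT replicate 3 is high for Marco (2.59) and low for Trem2 (-1.38).

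The start regions of these 4 genes are shown because they varied most from tumor to tumor. Their opposite directions hold between WT replicates 1 and 3. In KO replicate 2, for example, Marco (0.63) and Gpnmb (0.67) were both above their own means over the 6 libraries. Each window holds 250 bases before and 50 after the RefSeq start on GRCm38.p6 and is written 5′ to 3′ on the strand of the gene. Capitals mark GAGGAA, a core bound by the macrophage factor PU.1, searched on both strands. Marco lies at chr1:120504975-120505274 on the minus strand, Timd4 at chr11:46810549-46810848, Trem2 at chr17:48346151-48346450 and Gpnmb at chr6:49036268-49036567, these 3 on the plus strand.
Marco: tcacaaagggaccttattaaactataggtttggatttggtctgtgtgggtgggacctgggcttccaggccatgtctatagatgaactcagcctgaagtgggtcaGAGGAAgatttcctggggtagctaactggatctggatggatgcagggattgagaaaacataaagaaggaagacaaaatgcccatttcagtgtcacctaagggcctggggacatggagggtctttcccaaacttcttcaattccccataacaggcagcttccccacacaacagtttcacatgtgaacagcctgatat
Timd4: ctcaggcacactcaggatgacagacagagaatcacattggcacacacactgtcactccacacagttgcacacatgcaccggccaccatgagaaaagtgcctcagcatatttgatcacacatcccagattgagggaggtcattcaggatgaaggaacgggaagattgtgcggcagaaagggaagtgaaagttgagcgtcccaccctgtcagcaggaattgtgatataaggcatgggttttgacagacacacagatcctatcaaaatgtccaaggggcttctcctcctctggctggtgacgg
Trem2: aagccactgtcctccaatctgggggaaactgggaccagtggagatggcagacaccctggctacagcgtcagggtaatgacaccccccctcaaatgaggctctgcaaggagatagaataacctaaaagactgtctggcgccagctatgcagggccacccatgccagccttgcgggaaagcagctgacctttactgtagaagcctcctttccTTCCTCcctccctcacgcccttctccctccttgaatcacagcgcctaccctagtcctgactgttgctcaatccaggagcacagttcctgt
Gpnmb: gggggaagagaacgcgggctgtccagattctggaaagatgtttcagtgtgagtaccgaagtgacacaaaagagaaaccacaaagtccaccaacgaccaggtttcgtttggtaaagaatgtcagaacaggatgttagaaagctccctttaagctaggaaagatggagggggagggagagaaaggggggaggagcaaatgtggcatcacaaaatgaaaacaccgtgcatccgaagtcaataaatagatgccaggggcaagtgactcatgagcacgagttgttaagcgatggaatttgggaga

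The Marco window held GAGGAA 146 bases before the start, and the Trem2 window held it 40 bases before the start on the opposite strand. The Timd4 and Gpnmb windows did not hold these letters. RefSeq windows were matched for 8 of the 10 markers. Of these, 5 held GAGGAA (Marco, Cd5l, Cd68, Trem2 and Vsig4), against 28.3% of 32851 windows of the same length. TCACGTG, the core bound by MITF and TFE factors, also searched on both strands, was in 0 of the 8, against 3.77% of all windows. GAGGAA was in both Marco, highest in WT replicate 3, and Trem2, highest in WT replicate 1. A match of so few letters is a description and does not show a bound site.

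In the GENCODE M21 annotation of GRCm38, Marco is a protein-coding gene at chr1:120474538-120505024 on the minus strand and Timd4 one at chr11:46810800-46844332 on the plus strand. Trem2 is at chr17:48346401-48354147 and Gpnmb at chr6:49036546-49070929, both protein-coding and on the plus strand. Of the other markers, Clec4f is at chr6:83644542-83656187, Vsig4 at chrX:96247203-96293438 and Cd68 at chr11:69664213-69666153, on the minus strand, and Cd5l at chr3:87357881-87371073 and Adgre1 at chr17:57358691-57483527, on the plus strand. No other annotated gene overlaps any of these 9. Csf1r was left out of this check, and its position is not reported here.

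Set against all genes tested, the spread within genotype split the markers into 2 sorts. The SD pooled over WT and KO was 1.76 for Marco, 1.37 for Timd4, 1.08 for Gpnmb and 0.97 for Trem2, wider than in 99.7%, 98.8%, 96.3% and 94.0% of the genes tested. For the other 6 markers it ran from 0.28 for Cd68 to 0.52 for Cd5l, wider than in 35.4% to 66.1% of genes. Marco was no weakly expressed gene, with a mean log2 value above that of 72.5% of the genes tested. For Gpnmb that share was 67.65%, for Trem2 52.8% and for Timd4 51.3%, against 68.5% to 95.7% for the other 6 markers. The comparison of spread was not matched for expression level. The SD was larger in WT than in KO for 9 of the 10 markers, where 46.4% of all genes tested had the larger SD in WT. Clec4f was the exception, at 0.077 in WT and 0.70 in KO. The SDs of 3 tumors are imprecise, the markers share the same libraries, and the difference in spread between genotypes was not tested.

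**Figure D4:**
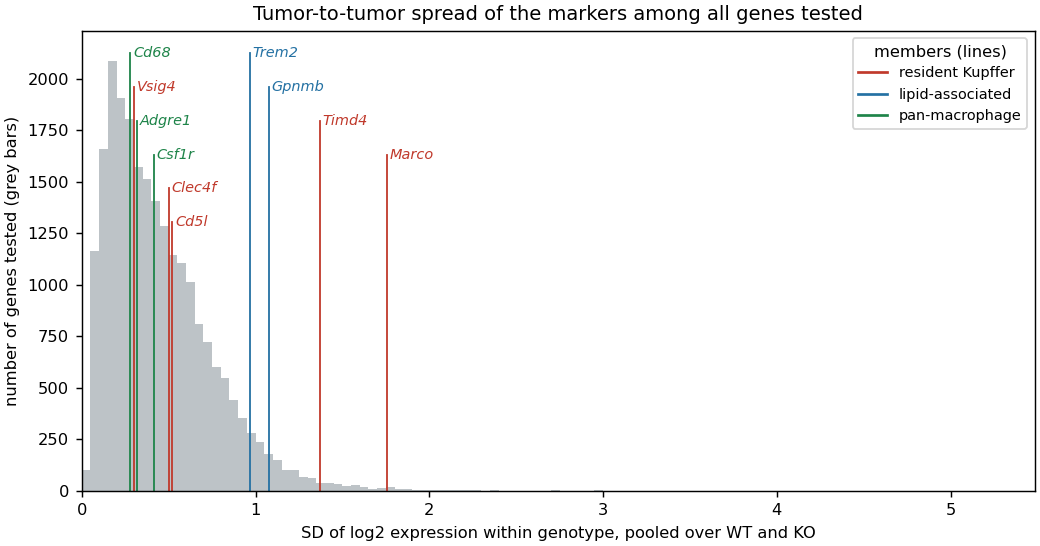
Number of genes tested (grey bars, vertical axis) by the SD of log2 expression within genotype, pooled over WT and KO (horizontal axis), with the 10 markers as coloured lines. Marco at 1.76, Timd4 at 1.37, Gpnmb at 1.08 and Trem2 at 0.97 lie in the right tail, and the other 6 markers lie between 0.28 and 0.52.

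Further genes of the 3 classes were compared between the genotypes in the same fit. Over all 22677 genes tested 10817 had the higher mean in KO and 11860 in WT. Of 10 further Kupffer genes 6 had the higher mean in KO and 4 in WT, the median log2 fold change was 0.0053, and 0 had an unadjusted p under 0.05. Slc40a1, the iron exporter ferroportin, had the smallest p of these, with a log2 fold change of 0.42 (unadjusted p 0.101 by limma). Fcna, which encodes the lectin ficolin A, had one of 0.33 and Il18bp, the binding protein of interleukin-18, one of -0.29. Of 12 further genes of most macrophages 10 were lower in KO, with a median of -0.15 and again 0 at an unadjusted p under 0.05. C1qa, a chain of complement C1q, was 9.95, 9.69 and 10.32 in the WT tumors against 9.61, 9.76 and 9.67 in the KO tumors, a log2 fold change of -0.30. Itgam, the integrin CD11b, had a log2 fold change of -0.61, and Cd14, a receptor for lipopolysaccharide, one of 0.38. The pair WT replicate 2 and KO replicate 1 was lowest in 6 of the 12 genes.

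The 10 further lipid-associated genes all had the higher mean in KO, but unevenly, with log2 fold changes from 0.022 to 1.02 and a median of 0.12. Only Lpl, lipoprotein lipase, had an unadjusted p under 0.05, as did 4.34% of all genes tested. Lpl was 10.85, 10.81 and 10.68 in the WT tumors against 11.63, 11.59 and 12.19 in the KO tumors. These values did not overlap, which was also the case for 8.28% of all genes tested. It had a log2 fold change of 1.02 ± 0.19 (standard error, unadjusted p 0.000597 and adjusted p 0.938 by limma). Its 3 WT libraries lay within 0.17 of each other on the log2 scale, where those of Trem2 spanned 2.69. Ctsl, the lysosomal protease cathepsin L, had a log2 fold change of 0.71, and Lipa, lysosomal acid lipase, one of 0.35, both with overlapping groups. Lpl, Ctsl and Lipa are also made by other cells of a liver tumor, and Spp1 is a bile duct gene as well.

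Ligands, receptors and factors that act with the markers were examined next. For the CSF1R axis 4 of 5 genes passed the filter on low values, Csf2 being the one left out. Csf1, the main ligand of Csf1r, had a log2 fold change of -0.34, and Il34, the other ligand, one of 0.21, and 0 of the 4 had an unadjusted p under 0.05. Among 7 genes around TREM2 signalling, 6 were lower in KO by at most 0.20 on the log2 scale, and 0 had an unadjusted p under 0.05. Of 10 receptors and bridging proteins for dying cells, the function of Timd4, 3 were higher and 7 lower, with 0 at that level and a median of -0.047.

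Among transcription factors of macrophages and Kupffer cells, Irf8, a factor of monocyte and macrophage development, was lower in KO by a log2 fold change of -0.21. By limma its unadjusted p was 0.161 and its adjusted p 0.999. The WT and KO values of Irf8 did not overlap, which was also the case for 8.28% of all genes tested. For Spic, which drives genes of iron-recycling macrophages, the log2 fold change was 0.46 (unadjusted p 0.178 by limma). Among 7 scavenger receptors other than Marco, Cd163, the haptoglobin-hemoglobin receptor, had an unadjusted p under 0.05, as did 4.34% of all genes tested. It was 6.61, 6.72 and 7.19 in the WT tumors against 8.34, 6.93 and 8.48 in the KO tumors, a log2 fold change of 1.08 (unadjusted p 0.0295 and adjusted p 0.999 by limma).

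**Figure D5:**
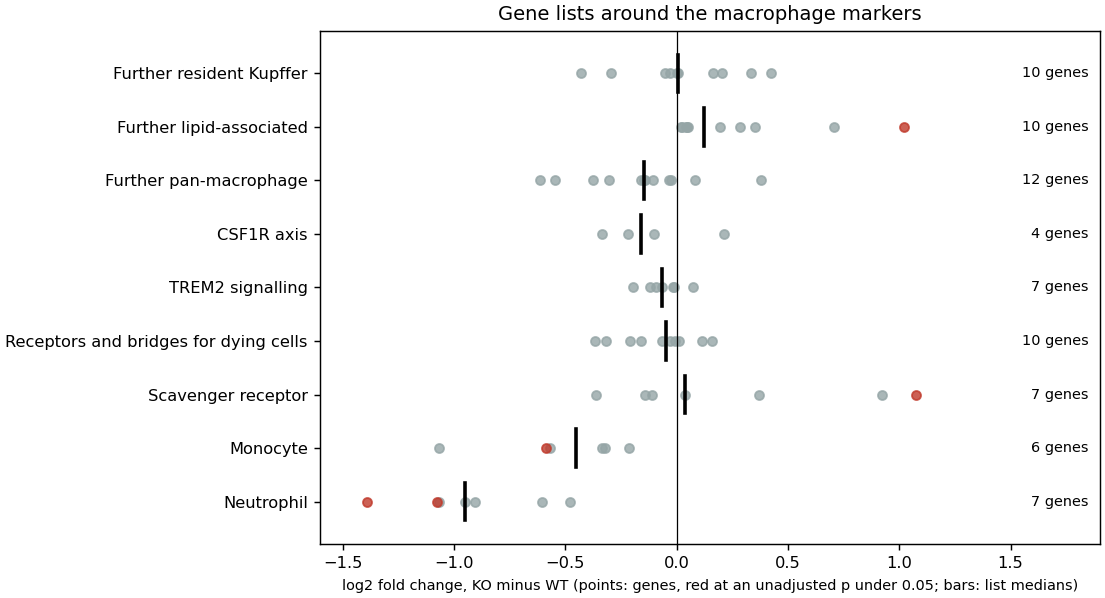
Log2 fold changes, KO minus WT (horizontal axis), of single genes in 9 lists around the macrophage markers (points, red at an unadjusted p under 0.05) with the list medians as black bars. The 7 neutrophil genes are all below 0 with a median of -0.95, while the median of the further resident Kupffer genes is 0.0053.

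Markers of neutrophils and monocytes were compared between the genotypes as well. All 7 neutrophil genes had a lower mean in KO, as did 11860 of all 22677 genes tested. Their median log2 fold change was -0.95, and 2 of them had an unadjusted p under 0.05, as did 4.34% of all genes tested. S100a8, a calcium-binding protein of neutrophils, was 6.51, 7.35 and 8.30 in the WT tumors against 5.89, 5.42 and 6.67 in the KO tumors (log2 fold change -1.39, unadjusted p 0.0219 by limma). The other was its partner S100a9, with a log2 fold change of -1.08. All 7 neutrophil genes, against 16.7% of all genes tested, were highest in WT replicate 3, the library in which Marco and Timd4 were also highest. The mean of the 7 log2 levels ran from 4.24 to 6.29 in WT and from 3.91 to 4.65 in KO, and their part in the Marco and Timd4 values was not tested. All 6 monocyte genes had a lower mean in KO, with a median of -0.45 and a mean level of 5.59 to 6.05 in WT and 5.14 to 5.39 in KO. Of these 6, 2 were highest in WT replicate 3. Ccr2, the receptor that brings monocytes into tissue, was 7.38, 7.31 and 7.27 in the WT tumors against 6.34, 6.98 and 6.88 in the KO tumors (log2 fold change -0.59, unadjusted p 0.0313 by limma). No gene of either list was below 0 in any library.

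Genes of other liver cells differed in part between the tumors too. The 8 genes of sinusoidal endothelium, cells that line the same vessels as Kupffer cells, had a median log2 fold change of 0.038, with mean levels of 9.38 to 9.77 in WT and 9.42 to 9.82 in KO. Of 6 stellate cell and fibroblast genes 1 had an unadjusted p under 0.05, as 4.34% of all genes tested did. It was Lrat, which esterifies retinol, with a log2 fold change of -0.79. Of the 6 genes 1 was higher and 5 were lower in KO, with a median of -0.40. Of 5 bile duct genes 2 did, and Krt19, a keratin of bile duct cells, was between 4.75 and 6.93 in WT and lower in all 3 KO libraries, at most 4.38. Of 5 erythroid genes, among them the globins of blood, 3 had such a p, all lower in KO. The median was -0.19 for 6 dendritic cell genes, 0.11 for 4 B cell genes and -0.11 for 5 T and NK cell genes, with 0 genes at that level. For the 3 liver tumor genes Afp, Gpc3 and Golm1 the median was -1.09, also with 0 genes. Of 6 hepatocyte genes 1 was below that level, Cyp2e1, with a log2 fold change of -0.89. The part of these cells in the marker values was not tested.

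The genes whose profile over the 6 libraries came closest to each marker class were also listed. Closeness was the root mean square difference of centred log2 values. For the shared macrophage markers these were Rnps1, Cdk2, Pwp2, Cyp3a13 and Ptgs1, with differences of 0.031 to 0.059. For the resident class they were Pdzd9, Art2a-ps, Gm26513, Bcl3 and Gm14286, with differences of 0.087 to 0.15. Of these, Pdzd9 (1.97 to 3.69), Gm14286 (1.41 to 3.55) and Gm26513 (2.88 to 4.48) had low log2 values. Those of Art2a-ps (4.03 to 5.72) and Bcl3 (6.64 to 8.35) were higher. For the lipid-associated class they were Asb16, Map6, Slc28a3, Gm6397 and Amn, at 0.20 to 0.24, and these 5 genes were weakly expressed, with log2 values from -0.073 to 2.71. No relation between these genes and macrophages was tested.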

How the data were processed

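RNA from 3 WT and 3 KO liver tumors had been sequenced as stranded libraries. The deposited table lists normalized log2 values by gene symbol, and no source names the transform. For alignment, the paper's methods name BWA and a genome written Mm 8, while the submitters' processing notes name STAR 2.5.1 and GRCm38, beside Trimmomatic 0.36. The authors counted reads with featureCounts (Subread) and used DESeq2. Counts and depth cannot be recovered from the values. The 3 unnamed columns hold 24 filled cells in all, mostly the authors' ratios of group means, and were not used. There were 0 further columns of per-sample values.

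The WT and KO libraries were tested against each other by limma 3.58.1 (R 4.3.3, lmFit, eBayes with trend, two-sided, Benjamini-Hochberg adjustment) on 22677 genes, after the 25% with the lowest means were left out. The same fit was run on data with known shifts as a check. The markers and lists were chosen with earlier results of these data known. Named genes are the 10 markers, Top1mt, up to 3 genes of each list with the smallest p, and the 5 closest profiles for each class. Others (Gm42418, Alb, Csf2, Spp1) are named for a limit they raise. For the list of transcription factors 1 gene, and with it the list's counts, is not reported here. Alternatives were limma without trend, quantile normalization, no filter, a filter at the median, the replicate block, group medians, and leaving out each library or WT replicate 2 with KO replicate 1. Promoter windows came from RefSeq (GRCm38.p6) and gene positions from GENCODE M21.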

Additional observations from a re-analysis of the deposited data

How the results depend on the processing

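Under every alternative 0 markers had an adjusted p under 0.05 (smallest 0.889 by limma), and 9 of the 10 changed direction under at least 1, Vsig4 being the exception. With one library left out, log2 fold changes ran from -0.26 to 0.39 for Clec4f, -0.65 to 1.09 for Timd4, 0.089 to 0.45 for Vsig4, -0.78 to 1.49 for Marco, -0.52 to 0.069 for Cd5l, -0.43 to 0.91 for Trem2, -0.54 to 0.67 for Gpnmb, -0.24 to 0.11 for Adgre1, -0.13 to 0.23 for Cd68 and -0.45 to 0.031 for Csf1r. Group medians turned Clec4f (-0.18), Cd5l (0.16), Gpnmb (0.55) and Cd68 (-0.050), and leaving out WT replicate 2 with KO replicate 1 turned Cd68 (-0.052). The cause was not tested. Markers at an unadjusted p under 0.05 numbered 0 to 2 with one library left out, the 2 being Marco and Vsig4 without WT replicate 3. Over all genes 922 had such a p in that setting. Markers without overlap numbered 0 to 2, and 1 (Csf1r) with both libraries left out, where fewer libraries make an overlap less likely. The share of all genes without overlap is given only for all 6 libraries, so these counts were not read as a result about the markers. Over all genes, 4 passed an adjusted p of 0.05 with no filter and 0 to 1 with one library left out, and 590 had an unadjusted p under 0.05 with a filter at the median, where fewer genes are tested. Same-numbered libraries share only a number (correlations of their deviations from the group means -0.123, -0.0759 and 0.0520), and the replicate block gave 0 markers and 912 genes at an unadjusted p under 0.05 and changed no other call.

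With 3 tumors a group and no read totals, each interval given holds the differences that the values do not reject, and for Marco, Timd4, Trem2 and Gpnmb these include differences of more than 1 on the log2 scale in both directions.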
